A study of Mus musculus with 3 samples.

Results

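The cells described here are contractile smooth muscle cells of the mouse ovary in which no transcript of Rgs5 was counted. They were defined on the deposited log-normalized values as cells with Acta2 of at least 3, at least 2 of the 4 genes Myh11, Actg2, Cnn1 and Des above 0, Rgs5 and Notch3 at 0, Inha and Cyp17a1 below 2, and Ptprc and Pecam1 at 0. This definition held for 808 of 31776 cells, or 2.54% (95% binomial interval, Clopper-Pearson, 2.37% to 2.72%). By barcode ending there were 254 such cells in set 1, 249 in set 2 and 305 in set 3, which is 2.45%, 2.51% and 2.66% of the cells of each set. They are called contractile cells below.

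Smooth muscle contracts when calcium activates myosin light chain kinase, and its tone is set against a relaxing pathway through nitric oxide, guanylyl cyclase and cyclic GMP. In the ovary, smooth muscle lies in the walls of vessels and in the outer layer of the follicle and the stroma, where endothelins and other agonists act on it around ovulation. Rgs5 and Notch3 are textbook genes of pericytes and of the smooth muscle of vessel walls. Actg2 and the hedgehog target Hhip are better known from smooth muscle of hollow organs.

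The study profiled mouse ovaries with 10x Genomics scRNA-seq, with 1 library each at 0, 1 and 6 h after human chorionic gonadotropin (hCG), labelled hCG0h, hCG1h and hCG6h. The study's methods name Kunming mice, 21 days old, whose ovaries were removed 48 h after an injection of PMSG, a gonadotropin from mare serum, which matches the library at 0 h. Whether the other ovaries had PMSG, and whether animals were pooled, is not given in the sources used here. The labels do not say which barcode ending is which library, so the 3 barcode sets carry no time point here and are given by number only.

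The contractile cells had a median of 6965 UMIs (674 to 29007), with 6263.5, 7320 and 7336 in sets 1, 2 and 3, and mitochondrial transcripts took 3.80%, 4.27% and 3.33% of their UMIs. Between sets, 27 to 46 barcodes were shared over all cells, and none was shared by contractile cells of both sets, though 1 to 3 contractile cells a pair had a barcode that another cell of the other set also carried. The whole table counts as 1 sample, and no difference below was tested. A level is the sum of a gene's UMIs over the cells named, per 10000 of all their UMIs, given in the order of sets 1, 2 and 3. A gene was counted as higher or lower when the ratio of 2 levels was at least 2-fold and its exact 95% interval left out 1, among genes with at least 30 UMIs in both groups together. All intervals cover counting error only, not the spread between cells or animals.

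Serum response factor, which with myocardin switches on contractile genes, binds the CArG box. This box is shown because it is the best known element shared by promoters of contractile genes. It was searched as 2 C, 6 bases that are A or T, and 2 G, with no mismatch allowed, on both strands from 250 bases before to 50 bases after the start, in RefSeq promoters of GRCm38.p6, the sequence of mm10. It was found in 3 of the 20 genes of the contractile protein list that had an entry, or 15%, against 488 of 27025 genes, or 1.81%. These were Myl9, Cnn2 and 1 of the promoters of Myl6, while Acta2, Cnn1 and Des, the contractile genes of the rule with an entry, held no exact match in this window. Elements that differ from the pattern by a base were not counted. Myl9 and Cnn2 are given below on the plus strand, with the box in capitals. It starts 161 bases before the start of Myl9, a myosin light chain, at chr2:156775214-156775413, and 56 bases before the start of Cnn2, a calponin, at chr10:79988350-79988569. A match of letters is no sign that the factor is bound.
Myl9: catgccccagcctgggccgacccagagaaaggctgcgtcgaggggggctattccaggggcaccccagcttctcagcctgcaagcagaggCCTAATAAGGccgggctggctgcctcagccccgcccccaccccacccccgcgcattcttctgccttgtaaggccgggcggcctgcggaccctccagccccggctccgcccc
Cnn2: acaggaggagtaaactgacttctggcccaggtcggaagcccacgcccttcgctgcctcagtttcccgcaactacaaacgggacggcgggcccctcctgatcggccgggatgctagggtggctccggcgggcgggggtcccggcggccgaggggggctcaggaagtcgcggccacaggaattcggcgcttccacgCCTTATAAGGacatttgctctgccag

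The values that chose the cells are given first, as a description. Acta2, smooth muscle α-actin, had a median log value of 4.64, and the lowest members stood at 3.001, 3.014 and 3.037. Just outside, 34 cells that met every other condition had Acta2 between 2.5 and 3, the highest at 2.99, 2.97 and 2.97, while 58 members lay between 3 and 3.5. Myh11, the smooth muscle myosin heavy chain, was above 0 in 93.2% of members, Actg2, enteric γ-actin, in 89.7% and Cnn1, calponin, in 70.3%. Des, the muscle intermediate filament desmin, was above 0 in 14.4%. Of the 4 genes, 341 members had 2, 388 had 3 and 79 had all 4. All 4 were found in 7.87%, 6.43% and 14.1% of members in sets 1, 2 and 3, whose median depths were 6263.5, 7320 and 7336 UMIs.

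Tagln, the actin-binding protein SM22, was not used by the rule, and it was above 0 in 99.4% of the members. With every cell thinned to the same 3000 UMIs, it was found in 98.5% of 736 contractile cells and in 21.02% of 1161 stromal cells without Acta2, whose median depth before thinning was 4896 UMIs. By set the stromal share was 9.67%, 26.2% and 33.8%. Tagln was found in 96.5% of thinned mural cells as well, the cells with Rgs5 or Notch3 described below, so it does not set the contractile cells apart from those. Myocd, also outside the rule, was found in 25.5% of thinned contractile cells, 16.3% of mural cells and 1.38% of stromal cells. The stromal cells were chosen with Acta2 at 0, so the contrast of these genes with them is a description only. The median log value of Tagln was 3.74, 4.24 and 4.51 in sets 1, 2 and 3, so the median was highest in set 3 and lowest in set 1. Myh11 had the opposite order, with medians of 2.27, 2.08 and 1.67.

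**Figure D1:**
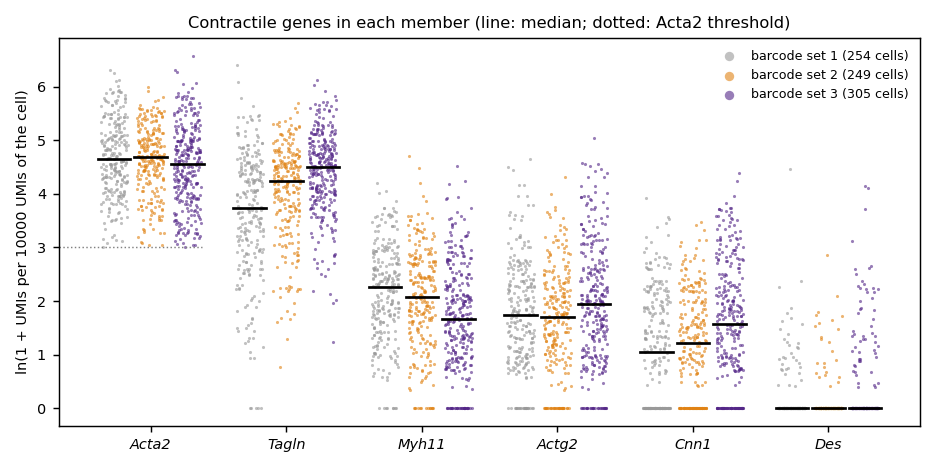
Log values, ln(1 + UMIs per 10000), of Acta2, Tagln, Myh11, Actg2, Cnn1 and Des in each contractile cell, by barcode set. Points are cells, lines are medians and the dotted line is the Acta2 threshold of 3. Tagln is above 0 in 99.4% of the cells and Des in 14.4%.

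Marker lists of endothelial, immune, granulosa and theca cells stood below their level in other cells, and the list of fibroblasts stood above it. The endothelial list, without Pecam1, summed to 0.465, 0.634 and 0.480 UMIs per 10000, against 2.73, 3.78 and 2.04 in all other cells. The immune list, without Ptprc, summed to 0.130, 0.109 and 0.145, against 1.23, 1.84 and 1.51. The granulosa list, without Inha, summed to 4.003, 5.18 and 3.05, against 39.2, 49.7 and 12.8, and no gene of these 3 lists was at 0. The theca and steroidogenic list, without Cyp17a1, summed to 20.4, 20.2 and 11.2, against 103, 85.4 and 51.4, and in it Akr1cl, an aldo-keto reductase, stood at 37.9%, 68.2% and 43.1% of its level in other cells. The fibroblast and stroma list summed to 38.5, 41.3 and 25, against 13.4, 14.9 and 10.8. Of its 14 genes, Ogn, Tcf21, Gsn and Loxl1 were higher than in other cells in each set, and Ly6a was lower. Over all genes, 2.92% were higher and 4.98% lower. The rule capped Inha, the inhibin α-subunit of granulosa cells, and Cyp17a1, so their own low levels show nothing further. Below that cap, Inha was above 0 in 54.2% of members (60.6%, 64.7% and 40.3% by set). Cyp17a1 was above 0 in 12.7% (22.4%, 12.9% and 4.59%). The part of free RNA in these values was not tested.

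Against all other cells, 418 of 14326 genes were higher in each of the 3 sets (2.92% of genes) and 714 were lower (4.98%), and this contrast holds the genes that chose the cells. Of 22 contractile proteins outside the rule, 17 were higher and none lower, with a median ratio of 4.50 where the median of all genes was 0.902. Tagln stood at 57.2, 70.5 and 90.7 against 1.16, 2.88 and 5.71 in other cells. Lmod1, leiomodin, which nucleates actin filaments, stood at 1.85, 2.25 and 2.04 against 0.0309, 0.0525 and 0.0437, and the groups were far apart in each set. Ecrg4, which encodes a secreted peptide precursor, stood at 0.828, 0.981 and 0.558 against 0.0401, 0.0289 and 0.0217. Of 33 genes of extracellular matrix and basement membrane, 16 were higher and 1 lower, with a median ratio of 2.28. Among them Mfap5, a microfibril protein, stood at 6.84, 12 and 7.94 against 0.322, 0.693 and 0.571. The higher genes also held Aspn and Optc, small leucine-rich proteoglycans, Slc2a4, the insulin-responsive glucose transporter, and Tnnt2, a troponin T of striated muscle, at 1.32, 1.52 and 0.509 against 0.0779, 0.0391 and 0.0188.

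A first comparison was with the cells that met the same rule apart from a count of Rgs5 or Notch3. There were 148 of them (46, 43 and 59 by set), with a median of 6990 UMIs, and they are called mural cells below. Of 956 cells with the contractile genes, 808 (84.5%) had neither gene, 90 had both, 11 had Rgs5 only and 47 had Notch3 only. Since a rule on 0 counts can miss a low transcript, 41 of the mural cells (27.7%) were set apart by a single UMI. Other genes of pericytes and vessel walls were not used by the rule. Their list was chosen with earlier results of these data known, so it is a description and no independent check of the split. Of 22 such genes, the median number with a UMI in a cell was 1 in contractile cells, 10 in mural cells and 1 in stromal cells. At least 4 of them were counted in 56 contractile cells (6.93%), in 116 mural cells (78.4%) and in 10 stromal cells (0.733%). The summed level of the list was 3.10, 2.97 and 2.43 in contractile cells, 39.9, 48.4 and 32.0 in mural cells, and 2.02, 2.93 and 1.62 in stromal cells. Within the list, Mcam, Jag1 and Aoc3 were higher than in stromal cells in each set, and none was lower. Against all other cells, Mcam, Cspg4 and Aoc3 were higher, and Cox4i2, Ndufa4l2, Gja4 and Tesc were lower.

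Against the mural cells, 90 of 6762 genes were higher in the contractile cells in each set (1.33%) and 178 were lower (2.63%). The pericyte and vascular list held 13 lower and no higher genes of 16 with enough counts, with a median ratio of 0.0248 where that of all genes was 1.09. The minimum of counts was set over both groups. A gene such as Higd1b, with a UMI in 0.248% of contractile cells, thus entered through the mural cells. The count and the median ratio are therefore a description only. Mustn1, a gene of the musculoskeletal system, stood at 0.176, 0.119 and 0.273 against 7.70, 13.0 and 9.08. Ndufa4l2, a mitochondrial protein of pericytes, stood at 0.0397, 0.0347 and 0.0124 against 4.32, 4.57 and 2.78. Gja4, the arterial gap junction protein connexin 37, stood at 0.0397, 0.0297 and 0.0413 against 3.38, 2.80 and 1.84. Single cells of the groups overlapped, as Mustn1 had a UMI in 7.80% of contractile and 70.9% of mural cells before thinning. Pdgfrb, the receptor that pericytes need for recruitment to vessels, differed less, at 0.748, 0.738 and 0.670 against 3.43, 2.18 and 2.32. The lower genes also held Higd1b, Cox4i2, Cspg4, Jag1, Sncg, Rcan2, Nrip2, Map3k7cl and Tesc.

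Contractile proteins were found at levels of the same order in contractile and mural cells. Of the 22 on the list, none was higher and none lower in all 3 sets, and the median ratio was 0.828. Tagln was at 63.3, 83.7 and 102 in mural cells, and the ratio of contractile to mural cells was 0.903, 0.842 and 0.890. Lmod1 stood at 1.84, 2.03 and 2.34 in mural cells, with ratios of 1.01, 1.10 and 0.871. Actg2, which the rule used in both groups, stood at 8.50, 6.96 and 9.27 in contractile cells and 2.65, 4.36 and 3.94 in mural cells. After thinning, it was found in 71.1% of contractile cells, 46.8% of mural cells and 0.431% of stromal cells. Des, also a gene of the rule, went the other way, at 0.380, 0.322 and 0.972 against 1.87, 1.83 and 2.69, and after thinning it was found in 7.88% of contractile cells, 46.1% of mural cells and 0.517% of stromal cells. Both genes helped to choose the 2 groups, so their levels are a description only.

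In the list of the relaxing pathway, 6 of 9 genes with enough counts were lower in contractile than in mural cells. None was higher, and the median ratio of the list was 0.227. The minimum of counts was set over both groups, so in each list genes low in contractile cells could enter through the mural cells. These counts and the median ratio are therefore a description only. The lower genes were both subunits of soluble guanylyl cyclase, the receptor of nitric oxide (Gucy1a1 and Gucy1b1), the kinase it activates through cyclic GMP (Prkg1), 2 phosphodiesterases that break down cyclic nucleotides (Pde5a and Pde3a) and the G-protein regulator Rgs4. The list thus also holds genes that limit the relaxing signal, such as the phosphodiesterases. Gucy1b1 stood at 0.198, 0.0941 and 0.0537 against 2.12, 2.45 and 1.71, a ratio of 0.0936, 0.0385 and 0.0315. Gucy1a1 stood at 1.23, 0.416 and 0.496 against 5.78, 4.51 and 3.39. Of 10 channel genes, Casq2, Kcnmb1, Abcc9 and Gjc1 were lower and none higher. Over all genes, 1.33% were higher and 2.63% lower than in mural cells. Of the lower genes of these lists, Casq2, Kcnmb1 and Prkg1 were higher than in stromal cells and in all other cells. The rest were neither higher nor lower than those in each set. Kcnmb1, the smooth muscle subunit of the large calcium-activated potassium channel, stood at 0.249, 0.139 and 0.153 against 0.530, 0.354 and 0.350. Of 16 transcription factors, Mef2c, Tbx2, Tbx3 and the notch target Hes1 were lower. Myocd, myocardin itself, stood at 1.06, 0.936 and 1.43 in contractile cells and 0.757, 0.796 and 0.481 in mural cells, and was past 2-fold in set 3 alone.

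Genes of connective tissue were among those higher in contractile than in mural cells. Of 9 fibroblast and stroma markers with enough counts, Ogn and Cd34 were higher and none was lower, with a median ratio of 2.23. Ogn, the proteoglycan osteoglycin, stood at 14.4, 15.6 and 6.74 against 4.59, 4.36 and 2.36. Mfap5 stood in mural cells at 1.04, 1.65 and 1.27, and the ratio of contractile to mural cells was 6.61, 7.27 and 6.26. After thinning, Mfap5 was found in 67.3% of contractile cells, 11.3% of mural cells and 9.13% of stromal cells, so it was low in both neighbours. Of 30 matrix genes, Mfap4 and Mfap5 were higher, and Eln, Col18a1, Lamb2 and Lamc1 were lower. Eln, elastin, the rubber-like protein of artery walls, stood at 0.363, 0.396 and 1.38 against 5.10, 8.17 and 5.73. Of 12 regional factors, 3 were higher, Lhx9 and Wnt5a among them, and none lower. Over all genes, 1.33% were higher and 2.63% lower than in mural cells. A gene low in mural cells could pass the minimum of counts through the contractile cells, so these counts are a description only. Wnt5a, a secreted signal, stood at 0.471, 0.634 and 1.36 against 0.227, 0.236 and 0.241. Its mural levels rest on few counts, as 3 UMIs there give 0.0757, 0.0884 and 0.0656. Other higher genes were Cyp1b1, a cytochrome P450, Cxcl14, a chemokine, Serpinf1, Plod2, Rbp4, Col11a1 and Igf1. Cxcl14 stood at 11.9, 10.5 and 10.5 against 4.14, 3.04 and 2.82.

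**Figure D2:**
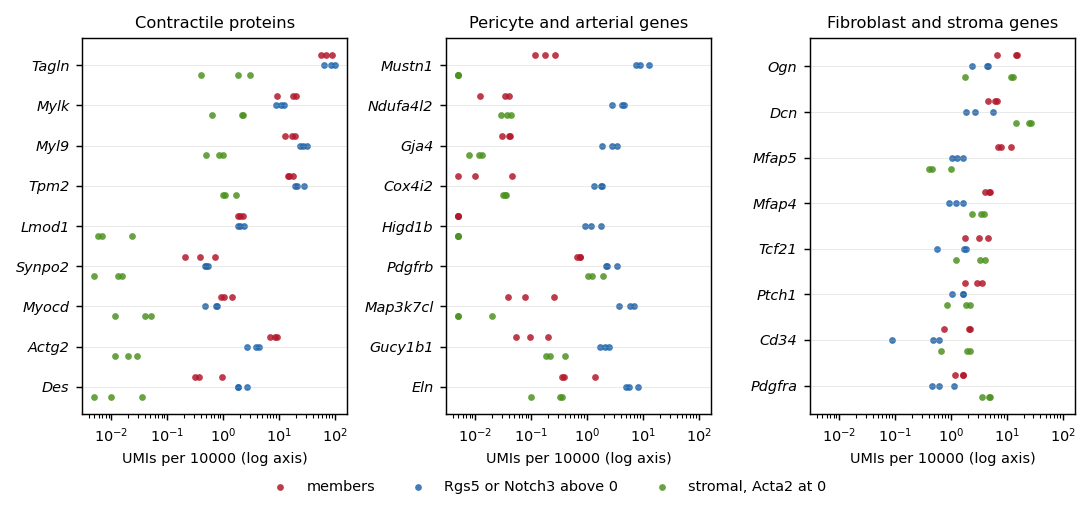
Levels in UMIs per 10000, on a log axis, of 26 genes in contractile cells (members), mural cells (Rgs5 or Notch3 above 0) and stromal cells without Acta2, with 1 point for each barcode set and levels under 0.005 drawn at 0.005. Contractile cells lie beside the mural cells for Tagln and Lmod1, and far below them for Mustn1 and Gja4, while Mfap5 is higher than in both.

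The stromal cells were set by Pdgfra above 0 and Dcn of at least 2 with Acta2 at 0 and the other exclusions as above, and there were 1365 (622, 467 and 276 by set). Against them, 193 of 8385 genes were higher in the contractile cells in each set (2.30%) and 70 were lower (0.835%). Of 22 contractile proteins, 17 were higher and none lower, with a median ratio of 4.16 where that of all genes was 0.975. Acta2 chose both groups, so a contrast in contractile genes was built into the choice and is a description only. Of 17 genes of filaments and dense plaques, the sites that anchor actin in smooth muscle, 9 were higher, among them Flna, Vcl, Nexn and Itga8. Myocd stood at 1.06, 0.936 and 1.43 against 0.0404, 0.0512 and 0.0117 in stromal cells. Ednrb, a receptor for endothelins, stood at 2.38, 2.20 and 0.558 against 0.0370, 0.0276 and 0, and with 0 counts in the stromal cells of set 3 no fold is given there. Other higher genes were Sh3bgr, Cdh3, Fbxl22, Slc16a7, Tspan2 and Pkp2. Pdgfa, a ligand of the receptor that marks the stromal cells, stood at 0.516, 0.490 and 0.496 against 0.0707, 0.122 and 0.205.

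Fibroblast and matrix genes were compared with the stromal cells next. Of 11 fibroblast markers, 2 were lower, Pdgfra and Dcn, which chose the stromal cells, and none was higher, with a median ratio of 0.560. Dcn, decorin, stood at 6.64, 6.23 and 4.57 against 26.9, 24.7 and 14.9. Of 30 matrix genes, Mfap5 was higher and none was lower, with a median ratio of 1.16. Over all genes, 2.30% were higher and 0.835% lower than in stromal cells. Ogn was 1.19, 1.22 and 3.84 times its stromal level, past 2-fold in set 3 alone. Among the lower genes were Cebpb, a transcription factor, Cxcl10 and Icam1, which act in inflammation, and Socs3, an inhibitor of cytokine signals. Icam1 stood at 0.601, 0.555 and 0.860 against 3.05, 1.69 and 2.90. Hedgehog targets were not apart in all 3 sets: Ptch1, the receptor, stood at 3.62, 2.93 and 1.83 against 2.22, 0.871 and 1.86, and Hhip, a decoy for the ligands, at 2.51, 1.31 and 0.600 against 0.686, 0.142 and 1.20.

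The barcode sets were compared next, within the contractile cells. Each set is a single group of cells, and the sets, the libraries they may come from and the animals cannot be told apart. From set 1 to set 2, 189 of 8891 genes were higher (2.13%) and 227 were lower (2.55%), with a median ratio of 0.946. From set 1 to set 3, 551 of 9115 were higher (6.04%) and 855 lower (9.38%), with a median of 0.962. From set 2 to set 3, 623 of 9106 were higher (6.84%) and 708 lower (7.78%), with a median of 1.02. The 3 comparisons share their sets. Whether more genes were higher or lower changed with the settings from set 1 to 2 and from set 2 to 3. Set 3 thus stood apart from the others for more genes than sets 1 and 2 did from each other.

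The contractile proteins did not move together between sets. From set 1 to set 2, none of 22 was higher or lower. From set 1 to set 3, Tagln2 was higher and Mylk, Synpo2, Pdlim3 and Ppp1r14a were lower, with a median over the list of 0.965. Over all genes, 6.04% were higher and 9.38% lower. Mylk, myosin light chain kinase, stood at 20.4, 17.9 and 9.23, and the ratio of set 3 to set 1 was 0.453 (0.430 to 0.478). Ppp1r14a, the inhibitor CPI-17 of myosin phosphatase, stood at 5.35, 4.06 and 1.82. In mural cells Ppp1r14a stood at 4.47, 6.54 and 8.48, so that its order over the sets was the opposite there. Synpo2, an actin-binding protein of muscle, stood at 0.714, 0.396 and 0.211. Myl9 stood at 19.4, 17.3 and 12.8, Myh11 at 10.3, 8.68 and 5.79, and Acta2 at 127.6, 119.1 and 102.9, short of 2-fold. Against these, Tagln stood at 57.2, 70.5 and 90.7, a ratio of set 3 to set 1 of 1.59 (1.55 to 1.62), and in stromal cells at 0.411, 1.88 and 3.06. Cnn1 stood at 3.79, 3.53 and 6.09, and Des at 0.380, 0.322 and 0.972, with a ratio of set 3 to set 1 of 2.56 (1.94 to 3.41). The order was thus set 1, 2, 3 for Tagln and the reverse for Mylk, Myl9 and Myh11. Tagln2 stood at 1.78, 2.35 and 6.71 in contractile cells and at 1.21, 2.49 and 6.71 in stromal cells.

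Receptors for agonists of contraction were few at this depth, with 3 of 20 having enough counts from set 1 to set 3, and the 2 endothelin receptors were both lower. Ednra stood at 1.30, 0.689 and 0.525, a ratio of set 3 to set 1 of 0.403 (0.322 to 0.502). Ednrb stood at 2.38, 2.20 and 0.558, a ratio of 0.235 (0.192 to 0.286), so that sets 1 and 2 lay close and set 3 was low. In mural cells Ednrb stood at 1.46, 1.504 and 2.17, with the highest level in set 3. The summed level of all 20 receptors was 3.97, 3.19 and 1.35 in contractile cells and 3.76, 4.01 and 4.07 in mural cells. Most of the sum in contractile cells came from Ednra and Ednrb, and 4 of the 20 genes were at 0 there. In the list of the relaxing pathway, 6 of 10 genes were lower in set 3 than in set 1, against 9.38% of all genes. Of the list, 1 gene, Pde4d, was higher, against 6.04% of all genes, and the median ratio was 0.458. The lower genes were Gucy1a1, Gucy1b1, Prkg1, Pde5a, Npr2, a natriuretic peptide receptor, and Rgs2, a regulator that damps G-protein signals for contraction. Rgs2 stood at 3.78, 2.90 and 1.65 in contractile cells and at 0.905, 4.48 and 4.09 in stromal cells, where set 1 had the lowest level and not the highest.

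Some genes of the immediate early and the hCG response lists had their highest level in set 2. From set 1 to set 2, 5 of 27 immediate early genes were higher (Egr2, Egr3, Ier3, Nr4a2 and Nr4a3) and 1 was lower, with a median ratio of 1.18. Over all genes, 2.13% were higher and 2.55% lower. Egr3, a zinc finger transcription factor, stood at 0.108, 0.976 and 0.269. Of 25 genes of the hCG, prostaglandin and endothelin response, 6 were higher (Areg, Ereg, Adamts4, Plat, Ccl2 and Errfi1) and Cxcl1 was lower, with a median ratio of 0.984. Errfi1, a feedback inhibitor of the EGF receptor, stood at 1.18, 6.96 and 2.12, a ratio of set 2 to set 1 of 5.91 (5.10 to 6.87), and at 0.888, 5.22 and 1.81 in stromal cells. Ccn2, connective tissue growth factor, stood at 1.92, 7.34 and 1.76, and at 2.68, 3.07 and 0.519 in other cells. Set 2 had the highest level of both genes in contractile cells. The EGF-like ligands Areg and Ereg are made in bulk by granulosa cells after an LH-like signal. Areg stood at 0, 0.619 and 0.0868 in contractile cells, which was 7.84% of its level of 7.89 in other cells of set 2. The part of free RNA in such genes was not tested.

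Among genes lower in set 2 than in set 1 were 7 of 15 regional factors, with Hoxc10, Hoxd9, Hoxd10, Lhx9, Osr1 and Osr2 among them, and none was higher. Of all genes, 2.55% were lower. Hoxd10 stood at 0.278, 0.0793 and 0.112, and Osr1, a factor of the urogenital mesenchyme, at 0.499, 0.154 and 0.124. In stromal cells Osr1 stood at 0.209, 0.0197 and 0.0936. Other lower genes were Spp1, osteopontin, Col15a1, Ccnd1 and Gucy1a1. Gucy1a1 had a ratio of 0.338 (0.260 to 0.437), and in stromal cells of 0.525.

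Among the genes with the largest ratios of set 3 to set 1 were Timp1, Mt2, Akr1b3 and Wnt4. Timp1, an inhibitor of matrix metalloproteinases, stood at 0.425, 0.619 and 10.4, a ratio of set 3 to set 1 of 24.4 (19.4 to 31.1), and at 0.400, 0.634 and 15.5 in stromal cells. Mt2, a metallothionein, stood at 0.612, 1.53 and 10.6, and Akr1b3, an aldose reductase, at 1.19, 2.31 and 11.9, and both had the same order in stromal cells. In other cells of set 3 these genes also had high levels, at 8.62 for Timp1, 9.57 for Mt2 and 9.46 for Akr1b3. Tnc and Eln had a different order in stromal cells. Tnc, tenascin C, a matrix protein of tissue repair, stood at 0.249, 0.287 and 1.43 in contractile cells and at 0.249, 0.319 and 0.222 in stromal cells. Eln stood at 0.363, 0.396 and 1.38 in contractile cells and at 0.363, 0.335 and 0.0995 in stromal cells. Igf1, insulin-like growth factor 1, stood at 1.89, 1.27 and 4.25, and at 2.09, 1.38 and 2.001 in stromal cells. Wnt4, a signal of the female gonad, stood at 0.147, 0.272 and 2.18, a ratio of set 3 to set 1 of 14.8 (9.97 to 22.8), while in stromal cells it was already at 1.39, 1.35 and 2.52. The difference between these cell groups was not tested.

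Over the lists, 4 of 31 matrix genes were higher in set 3 than in set 1, Eln, Npnt, Tnc and Mgp, and Col4a5 and Lama2 were lower, with a median of 0.932. Mgp, an inhibitor of calcification, stood at 7.28, 14.1 and 22.4. Of 11 fibroblast markers, Clec3b and Loxl1, a cross-linker of elastin, were higher, and Lum, Ogn, Col15a1 and Cd34 were lower, with a median of 0.689. Loxl1 stood at 0.930, 1.001 and 2.83. Of 23 genes of the hCG response, 5 were higher, with Ereg, Timp1, Plat and Hif1a among them, and Angpt1 and Angpt2 were lower, with a median of 1.16. Over all genes, 6.04% were higher and 9.38% lower from set 1 to set 3. The lower genes of the matrix and hCG lists did not exceed that share. Procr, the protein C receptor, stood at 0.0227, 0.0248 and 1.39 in contractile cells and at 0.0673, 0.315 and 1.08 in stromal cells. Nts, neurotensin, and Sult1e1, estrogen sulfotransferase, were among the highest ratios of set 3, but at 0.835 and 0.517 they stood at 5.69% and 5.06% of their levels in other cells of that set. The part of free RNA in these 2 genes was not tested.

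Among the genes lower in set 3 were Adamts5, Mme, Fbxo32 and Cyp26b1. Adamts5, an aggrecanase, stood at 6.04, 3.34 and 0.819, a ratio of set 3 to set 1 of 0.136 (0.116 to 0.158), and Mme, the peptidase neprilysin, at 1.98, 1.18 and 0.145. Set 2 lay between the others for both. Fbxo32, a ubiquitin ligase of muscle atrophy, stood at 1.45, 0.575 and 0.0537, below its level in other cells of set 3, 0.208. Cyp26b1, which breaks down retinoic acid, stood at 0.369 and 0.208 in sets 1 and 2 and had no UMI in set 3. Hhip stood at 2.51, 1.31 and 0.600, while in stromal cells set 3 had the highest level. Of 8 steroid and hormone receptors, 3 were lower, Esr2 and Lhcgr among them, and none higher, with a median of 0.556. Of all genes, 9.38% were lower from set 1 to set 3. Esr2, an estrogen receptor, stood at 0.130, 0.114 and 0.0579, and at 0.138, 0.0827 and 0.0293 in stromal cells. Markers of other cell types were also lower in set 3 than in set 1 within the contractile cells, with Inhba and Hsd17b1 of the granulosa list and Hsd3b1 and Akr1cl of the theca list, while Star and Fdx1 of the theca list were higher. The granulosa list without Inha stood in other cells at 39.2 in set 1 and 12.8 in set 3, and its part in these results was not tested. From set 2 to set 3, 6 of 18 transcription factors were lower (Srf, Mef2a, Tcf21, Heyl, Hes1 and Nr4a1) and none higher. Of all genes, 7.78% were lower between these sets. Srf stood at 0.215, 0.416 and 0.128.

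**Figure D3:**
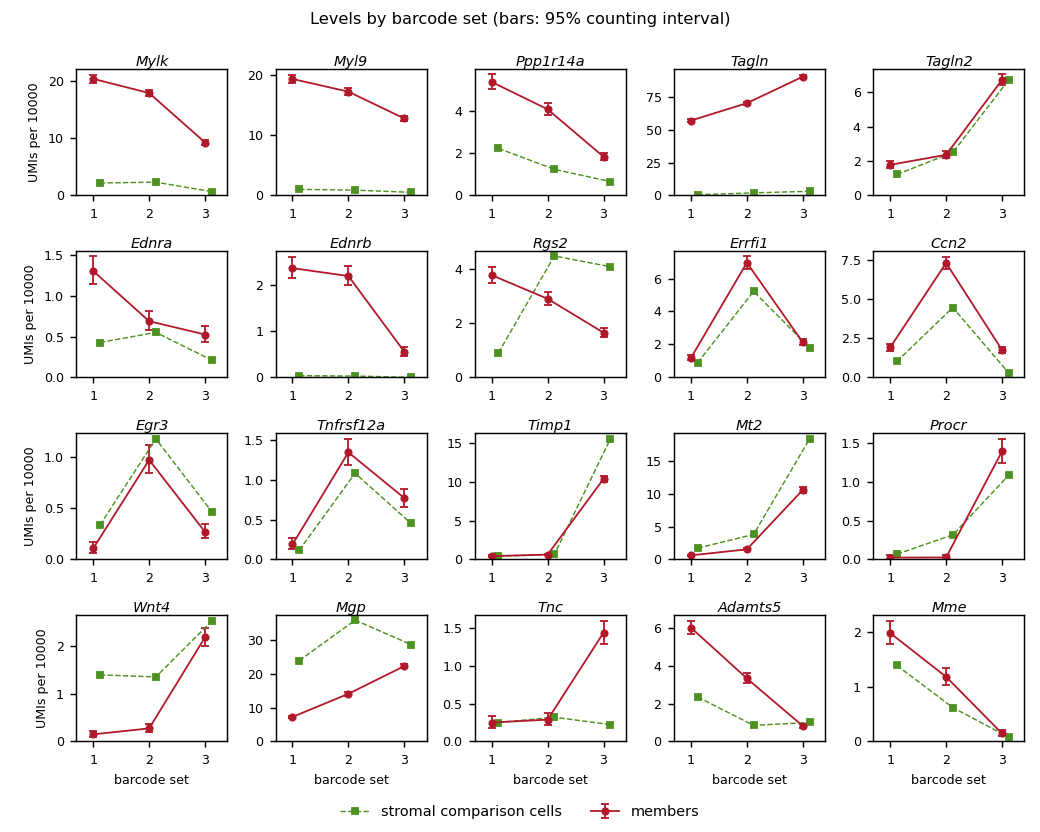
Levels in UMIs per 10000, on linear axes from 0, of 20 genes in the contractile cells of each barcode set (circles, bars are 95% counting intervals) and in the stromal cells (squares). Tagln is highest in set 3 and Mylk lowest, Errfi1 and Ccn2 peak in set 2, and Tnc is high in the contractile cells of set 3 and not in its stromal cells.

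The contractile cells were also unequal among themselves. Actg2 was at least 3 on the log scale in 26, 22 and 60 members of sets 1, 2 and 3, which is 10.2%, 8.84% and 19.7%, and it was 0 in 24, 32 and 27. The median depths were 6322, 7699.5 and 4569 UMIs for the first group and 5272, 6723.5 and 6500 for the second. The median log value of Acta2 was 5.74, 5.55 and 5.48 in the first group and 4.34, 4.38 and 4.13 in the second. The split by Actg2 thus also sorts the cells by Acta2. Of 1528 genes with enough counts, 67 were higher (4.38%) and 38 lower (2.49%) in the Actg2-high cells in at least 2 of the 3 sets. Of the contractile proteins, 13 of 20 were higher in set 1, 11 of 21 in set 2 and 11 of 21 in set 3. Over all genes with enough counts in a set, 109 of 1677 (6.50%), 143 of 2056 (6.96%) and 116 of 2812 (4.13%) were higher. The contractile proteins had 1, 1 and 0 lower and median ratios of 2.54, 2.07 and 2.03, where those of all genes were 0.955, 0.967 and 0.965.

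Tagln stood at 166.5, 160.2 and 165.9 in the Actg2-high cells and at 36.5, 43.5 and 69.4 in those without Actg2. Its level in the Actg2-high cells hardly differed between sets, while that of the cells without Actg2 was highest in set 3. Tpm2, β-tropomyosin, stood at 60.4, 45.7 and 34.9 against 11.1, 8.33 and 11.9. Hspb1, a small heat shock protein that binds actin, stood at 6.00, 3.70 and 5.65 against 0.974, 0.0867 and 1.78. Des stood at 1.96, 1.59 and 4.96 against 0.417, 0.0867 and 0.400, and Cnn1 at 14.8, 11.1 and 20.2 against 2.71, 2.65 and 4.18. The level of 0.0867 for Hspb1 and Des comes from the 32 cells without Actg2 in set 2 and rests on very few UMIs. The higher genes also held Sh3bgr, Igfbp5, Tnnt2, Myl9, Ckb, the brain-type creatine kinase, Perp and Pcp4l1.

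Among the lower genes of the Actg2-high cells were Gpc3, Mt2, Mgp, Pdgfra, Adamts5, Cygb, Hmgb2, Sept11, Bicc1 and Ppp1r15a. Pdgfra stood at 0.392, 0.228 and 0.752 against 1.67, 2.30 and 1.25, and Mgp at 2.97, 4.55 and 11.5 against 5.98, 15.4 and 23.5. Ogn stood at 16.6, 19.9 and 7.82 against 13.5, 16.8 and 7.39, and Hhip at 2.30, 1.48 and 0.812 against 2.23, 1.43 and 0.890, so these 2 genes were at like levels at both ends of Actg2. Actg2, Cnn1 and Des are genes of the rule, and cells without Actg2 had to hold 2 of the other 3, so this split is a description of the chosen cells.

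**Figure D4:**
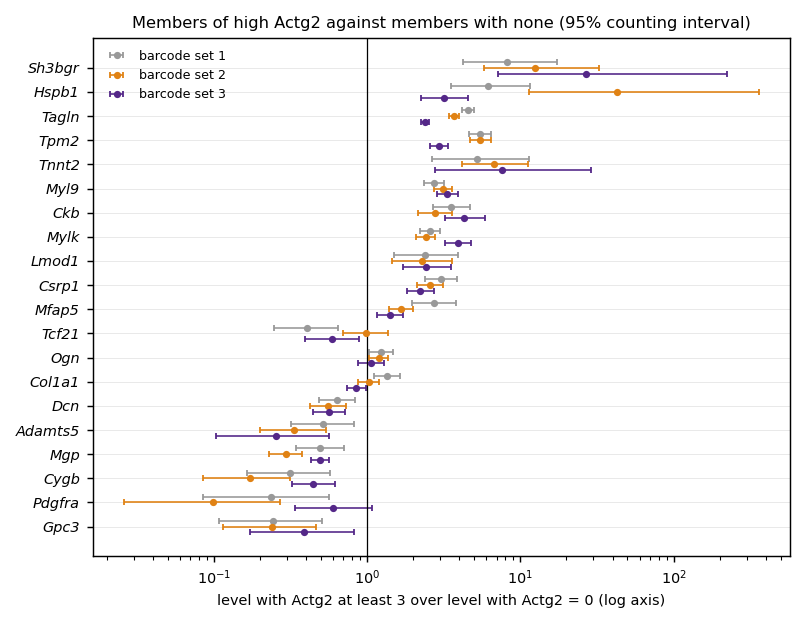
Ratio of the level in contractile cells with Actg2 of at least 3 to that in contractile cells with Actg2 at 0, on a log axis, for 20 genes by barcode set, with 95% counting intervals. Tagln and Tpm2 lie above 1 in all sets and Mgp below 1, while Ogn stays near 1.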

How the data were processed

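The authors deposited 1 table for all cells, in natural log units: each gene's UMIs were scaled to 10000 per cell, and 1 was added before the log. Per the labels, the submitters' processing notes name Cell Ranger, Seurat and mm10. Versions and filters on cells are not given in the sources used here, nor is any removal of doublets, and no doublet caller was run. Every value gave back a whole UMI count within 0.01 UMI (80167176 values, 240030587 UMIs), with 500 to 133658 UMIs a cell.

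Cells were chosen on the deposited values, and their UMIs were summed by barcode ending. Levels have exact Poisson intervals, ratios exact conditional binomial intervals and shares Clopper-Pearson intervals, all at 95%. Shares across depths were taken after thinning to 3000 UMIs, with 72 contractile cells under that depth left out. The ratio step was tested on simulated data.

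The members and gene lists were chosen with earlier results of these data known. Besides listed genes, the named genes are the 15 in each direction with the ratio bound nearest 1 most extreme (10 for Actg2), without rule, ribosomal, mitochondrial, Gm and Rik genes. Some genes are not reported here. Examples within a list were picked after their values were seen. Python 3.11.15, numpy 2.4.6, scipy 1.17.1 and matplotlib 3.10.9 were used.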

Additional observations from a re-analysis of the deposited data

How the results depend on the processing

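No paired analysis was possible because each time point is 1 library with no replicate number. The number of contractile cells was 467 with 3 of the 4 contractile genes needed, and 340 with Inha and Cyp17a1 at 0. With those 2 genes at 0, lower genes numbered 440 against other cells and 56 against mural cells, and 117 were higher than in stromal cells. From set 1 to 2 there were then 117 higher and 133 lower, with 498 lower from set 1 to 3 and 468 from set 2 to 3. With means over cells, 137 genes were higher than in mural cells, and 178 were with the mural cells held to Rgs5 of at least 2, an alternative chosen after seeing the data. With cells thinned to 3000 UMIs, 406 genes were lower than in other cells, 81 than in mural and 41 than in stromal cells, and 127, 521 and 430 were lower from set 1 to 2, 1 to 3 and 2 to 3. With at least 100 UMIs needed, lower genes numbered 59 against mural and 26 against stromal cells, with 112 higher than in the latter. The sets then gave 74 higher and 39 lower from 1 to 2, 310 and 329 from 1 to 3, and 312 and 288 from 2 to 3. With no minimum, 335 were lower than in mural cells, 106 than in stromal cells, 444 from set 1 to 2 and 1287 from set 1 to 3. More genes were lower than higher in the comparisons of the sets and with mural cells, and this turned around in some. Between sets 1 and 2 it did with 100 UMIs needed, with 3 of the 4 contractile genes needed (169 higher, 166 lower) and with thinning (133 and 127). From set 2 to 3 it did with 100 UMIs needed, with Inha and Cyp17a1 at 0 (649 and 468), with thinning (469 and 430) and without the tenth of members of most UMIs (677 and 647). Against mural cells it did with those 2 genes at 0 (64 and 56) and with 100 UMIs needed (65 and 59). A higher minimum tests fewer genes, and the cause of the other shifts was not tested. Of 1580 values under the alternatives, over the named genes reported here alone, 1363 stayed within their counting interval and 217 moved further, while 28 named genes had a group at 0 and no ratio to compare. A level that rests on 3 UMIs is 0.0757, 0.0884 and 0.0656 per 10000 in mural cells of sets 1, 2 and 3, and 0.0170, 0.0149 and 0.0124 in contractile cells.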
